A study of Mus musculus with 96 samples.

Results

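The nuclear-encoded genes of the mitochondrial respiratory chain were followed across 48 single mouse embryonic stem (ES) cells. Rows were taken by gene symbol: names that begin with Nduf, Uqcr, Sdha, Sdhb, Sdhc, Sdhd or Atp5, or with Cox4 to Cox8, without pseudogenes. Of 23284 gene rows, 92 carried such a name, and 89 averaged 10 reads per cell or more. Of these 89 members, 80 encode subunits, grouped here by name. Complex I has 37 (7 core and 30 accessory), complex II 4, complex III 8, complex IV 16 and complex V 15. The names also caught 9 rows that encode no subunit. These are the complex I assembly factors Ndufaf1, Ndufaf2, Ndufaf3 and Ndufaf4, the complex II assembly factors Sdhaf1 and Sdhaf2, and Cox4nb, Atp5s and Atp5sl. Cox4nb, also named Emc8, encodes a subunit of a membrane complex of the endoplasmic reticulum. The 9 rows were kept as members but set apart from the complexes.

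The cells were J1 ES cells, an established mouse line, at passage 12 to 20. They had grown without feeder cells in medium with 15% fetal bovine serum and leukaemia inhibitory factor, which holds back differentiation. All belong to 1 group, serum ES cells. The labels name no separate cultures, so each p-value below measures only the spread between these cells. Cells were captured and lysed one by one on a microfluidic chip, SMARTer chemistry amplified the cDNA, and each library was sequenced on 2 lanes, which gives 96 samples for 48 cells.

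The respiratory chain passes electrons from NADH (complex I) and succinate (complex II) through ubiquinone, complex III and cytochrome c to complex IV, which reduces oxygen. Complexes I, III and IV pump protons across the inner mitochondrial membrane, and complex V, the ATP synthase, uses their return to make ATP. Complexes I, III, IV and V also hold subunits encoded by mitochondrial DNA, which were not analysed here, whereas complex II is built from nuclear genes alone. Pluripotent cells draw on both glycolysis and respiration for ATP.

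Summed over lanes, a cell had from 4408953 to 9767245 reads in genes and from 8039 to 10291 genes with a read. Members held 3925836 reads on lane 1 and 3908260 on lane 2. The cells formed 2 clusters when the members were left out of the clustering genes. In the larger, of 35 cells, pluripotency markers summed to 1246 to 7003 CPM and primitive endoderm markers to 44.5 to 1410 CPM. In the smaller, of 13 cells, the sums were 162 to 2380 CPM and 10508 to 38054 CPM. They are called naive-like and endoderm-like. Markers of fibroblasts, a cell type that can be carried over as feeders, had 4 of 8 genes at 0 in every cell and a median sum of 0 CPM in both clusters. Trophectoderm markers moved with the clusters: 1 of 6, Cdx2, was at 0 in every cell, and the sums were 0.911 to 1907 CPM (median 41.7) in naive-like and 206 to 3827 CPM (median 962) in endoderm-like cells. Their part in the differences between clusters given below was not tested.

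Promoters are shown for 4 members as a description. Whether their motifs have a part in how subunits varied together across cells, described below, was not tested. A RefSeq promoter of 300 bases (build GRCm38.p6, 250 before the start and 50 after it) was found for 74 of the 89 members. Each was searched on both strands for GCATGCGC, the core of the NRF1 site, for CCGGAAG, an ETS site as bound by GABPA, and for AAGATGGCG, a YY1 site. These factors are known regulators of nuclear genes for mitochondrial proteins. Of the 74 members, 11 (14.9%) held the NRF1 letters, against 6.41% of 9345 genes above the same read minimum and 3.05% of all 27025 genes of the table. The ETS letters were in 19 members (25.7%, against 21.0% and 9.93%). The YY1 letters were in 8 (10.8%, against 3.85% and 1.64%). The NRF1 and YY1 shares were above those of genes with reads, and the ETS shares lay close together.

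At least 2 of the 3 motifs occurred in the windows of 6 members. For 1 of them in each of complexes II, III, IV and V, the 250 bases before the start are printed 5′ to 3′ on the strand of the gene, with motif letters in capitals. They lie at chr4:140961021-140961270 (plus strand) for Sdhb, chr10:80406822-80407071 (minus) for Uqcr11, chr5:115348959-115349208 (minus) for Cox6a1 and chr5:108434400-108434649 (minus) for Atp5k. The capitals are NRF1 letters in Sdhb and Atp5k, ETS letters in Uqcr11, and NRF1 followed by ETS letters, the latter on the opposite strand, in Cox6a1. In Cox6a1 and Atp5k the NRF1 match overlaps its own copy on the other strand. The second motif of Sdhb, Uqcr11 and Atp5k does not lie whole within the printed bases and is not marked. It lies after the start or across it.
Sdhb: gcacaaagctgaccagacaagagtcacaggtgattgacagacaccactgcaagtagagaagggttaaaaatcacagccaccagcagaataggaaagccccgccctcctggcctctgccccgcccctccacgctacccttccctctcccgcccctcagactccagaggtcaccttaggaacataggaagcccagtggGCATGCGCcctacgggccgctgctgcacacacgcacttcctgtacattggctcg
Uqcr11: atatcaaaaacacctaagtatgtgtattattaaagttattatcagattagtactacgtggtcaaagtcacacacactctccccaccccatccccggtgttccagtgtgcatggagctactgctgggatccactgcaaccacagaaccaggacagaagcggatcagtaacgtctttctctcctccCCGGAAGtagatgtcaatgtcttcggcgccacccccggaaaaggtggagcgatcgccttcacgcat
Cox6a1: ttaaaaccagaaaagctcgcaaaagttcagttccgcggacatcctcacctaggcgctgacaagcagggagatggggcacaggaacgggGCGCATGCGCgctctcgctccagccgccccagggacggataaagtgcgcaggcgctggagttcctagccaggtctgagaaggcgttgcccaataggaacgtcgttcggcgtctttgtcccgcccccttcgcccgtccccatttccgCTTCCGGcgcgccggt
Atp5k: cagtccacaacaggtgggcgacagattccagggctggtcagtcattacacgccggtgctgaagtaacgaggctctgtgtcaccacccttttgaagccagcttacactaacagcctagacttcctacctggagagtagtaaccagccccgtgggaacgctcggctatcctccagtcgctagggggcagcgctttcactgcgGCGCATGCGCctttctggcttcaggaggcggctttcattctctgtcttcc

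Respiratory chain genes were expressed at a high level as a set, and their summed share of reads differed little between cells. Together the 89 members held 2.28% ± 0.229 of a cell's reads in genes (SD, n = 48), from 1.87% to 2.70%, so the richest cell had 1.45 times the share of the poorest. Complex V held the most, 0.774% ± 0.108, followed by complex I with 0.661% ± 0.0814, complex IV with 0.439% ± 0.0658 and complex III with 0.266% ± 0.0472. Complex II, with the fewest genes, held 0.0964% ± 0.0300. Without the 50 rows with the most reads, which include Atp5b of complex V, complex I held 0.783% and complex V 0.728%, so the order of the leading complexes depends on that gene. The SDs of complexes V and I overlapped, and those of the other neighbours in this order did not. In cells thinned to 4408953 reads, 73 of the 89 members (82.0%) were detected with at least 5 reads in every cell, against 15.3% of all genes tested.

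Levels of single genes are given in CPM (counts scaled to a common library total) and are compared between genes only per kilobase of transcript. Per kilobase, 86 of the 89 members lay above the median of all tested genes, 8.28 CPM per kilobase. The 2 highest were in complex IV: Cox6a1 with 1649 CPM per kilobase and Cox4i1, a regulatory subunit, with 1467. In complex III the small subunits Uqcr10 (893) and Uqcrb (678) led, and in complex V the catalytic β subunit Atp5b (836) and the c-ring gene Atp5g3 (810). Ndufa4 (773) and Ndufa7 (609) led complex I. Ndufa4 was first assigned to complex I and is now counted with complex IV. By name, it and its relative Ndufa4l2 are kept here among the accessory genes of complex I. In complex II the iron-sulphur subunit Sdhb (279) and the membrane anchor Sdhd (232) led.

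At the low end stood Cox4i2 (2.05 CPM per kilobase) in complex IV, Ndufab1 (13.5), the mitochondrial acyl carrier protein, in complex I, and the Rieske iron-sulphur protein gene Uqcrfs1 (52.1) in complex III. The membrane anchor Sdhc (60.1) was lowest in complex II and Atp5l (84.1), a subunit of the membrane part, in complex V. Lengths are those of the annotated main transcript, 3479 bases for Ndufab1, and a cell that uses a shorter one has a higher level than given. Atp5l is also a gene with near-copies: 84.8% of the 50-base stretches of its transcript occur in other genes. Atp5g2 (87.4%), Sdhaf1 (69.0%), Cox7c (53.0%) and Atp5h (47.9%) share much of theirs too, and in all 47 members shared some. How the submitters counted reads with several matches is not given in the sources used here, so the levels of these genes are uncertain. In the 15 members that shared at least 25%, the median level was 208 CPM per kilobase, against 178 in the 52 members that shared under 5%.

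Nearest to the minimum of 10 reads lay the complex IV members Cox8c with a mean of 11.1 reads and Cox4i2 with 12.0. Just outside were the complex I gene Ndufs5 with 2.04 reads, of whose transcript 31.1% is shared with other genes, and Cox8b with 0.0208. Cox6a2, the third row left out, had 0 reads in every cell.

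The plot of read shares by complex shows these values cell by cell.

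**Figure D1:**
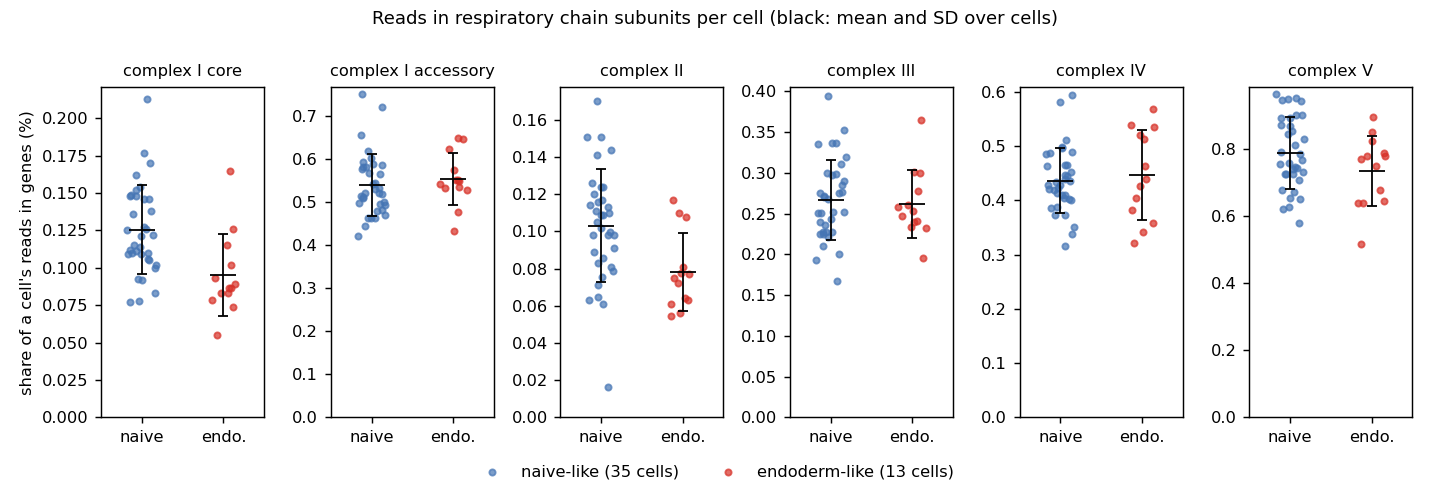
Share of a cell's reads in genes (%) that fell on each complex, 1 point per cell, with mean and SD, for 35 naive-like and 13 endoderm-like cells. Each panel has its own axis from 0. The clusters overlap in all 6 panels. The lowest point of complex II is a naive-like cell at 0.0165%.

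Which respiratory chain genes varied between cells was asked next. A gene's variance over 48 cells, on the log2(CPM + 1) scale, was set against the trend of genes of like mean. None of the 89 members varied significantly more than such genes. With scran's modelGeneVar and Benjamini-Hochberg adjustment, 0 of 89 were called, where 2.03% of all 11746 genes tested were. At an unadjusted p under 0.05 there were 2 members, Ndufs1 and Sdhd (5.24% of all genes tested passed so). The count was also 0 with the squared coefficient of variation, scran's other measure, and 0 with each other scaling, filter and depth tried over all 48 cells.

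Most members lay under the trend. Their variance was at or below it for 75 of 89 (84.3%), against 49.2% of all genes, and the median ratio of variance to trend was 0.508, against 1.01. The same held among well expressed genes: with a mean log2 value of at least 6, 9 of 70 members (12.9%) lay above the trend, and 51.3% of 2089 genes did. Of those 2089 genes 9.86% were called, and 0 of the 70 members. The steadiest by this ratio were Ndufb4, an accessory subunit of the complex I membrane arm (0.0541), Atp5l (0.0766) and Atp5g2 (0.0877). All 3 are among the members that share stretches with other genes: the shared part is 37.0% for Ndufb4. The median ratio was 0.338 in the 15 members that shared at least 25% and 0.569 in the 52 that shared under 5%, so both classes lay under the trend.

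Complexes differed in how many members lay above it. Complexes III and V had 0 of 8 and 0 of 15. Complex IV had 3 of 16 (Cox5a, Cox4i1 and Cox7b2), the accessory subunits of complex I had 2 of 30 (Ndufa4l2 and Ndufa9), the complex I core had 3 of 7 and complex II had 2 of 4. The 3 members with the highest ratio of variance to trend, Ndufs1, Sdhd and Sdha, belong to complexes I and II, where electrons enter the chain. Median ratios were 0.566 for the core, 0.378 for accessory subunits, 1.14 for complex II, 0.510 for complex III, 0.488 for complex IV and 0.547 for complex V. With a pseudocount of 10 CPM the median of complex II fell below the trend. These are counts of few genes, and no test was made between complexes.

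Ndufs1 and Ndufv1 were among the core genes above the trend. Ndufs1 (chr1:63143596-63176833, minus strand, GRCm38) encodes the largest core subunit, which carries iron-sulphur clusters. Its level had a lowest value of 0.827 CPM, a median of 164 CPM and a highest of 516 CPM. Its variance was 3.42 where the trend gave 1.73, a ratio of 1.98 (p = 0.00778, adjusted p = 0.254 by scran with Benjamini-Hochberg adjustment, from 0.0935 to 0.929 over the alternatives). Ndufs1 was detected in 47 of 48 cells, and the 3 lowest cells had 6, 17 and 21 reads against a median of 1105. A few cells thus held almost none of its reads.

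Ndufv1, which binds the flavin and NADH, ranged from 3.97 to 648 CPM with a median of 137 CPM (variance 2.57, trend 1.81). It did not pass (adjusted p = 0.902). Of the 7 core genes 4 lay under the trend, with Ndufs3 farthest below it (variance 1.37, trend 3.49).

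Among the genes grouped by name as accessory subunits, Ndufa4l2 had the largest excess (variance 5.13, trend 3.79). It is a relative of Ndufa4 known for its induction in low oxygen. It was detected in 11 of 48 cells and reached 156 CPM. Ndufb4 stood at the other end. It ranged from 9.63 to 45.8 CPM with a median of 24.2, a 4.76-fold range, and its variance was 0.268 where the trend gave 4.96.

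In complex II the flavoprotein Sdha, which oxidises succinate, ranged from 0.541 to 664 CPM with a median of 154 CPM (variance 2.83, trend 1.81, adjusted p = 0.902). Sdhd (chr9:50596357-50603812, minus strand) ranged from 1.42 to 663 CPM with a median of 277 CPM (variance 1.74, trend 0.946, p = 0.0195, adjusted p = 0.522, from 0.00416 to 0.929 over the alternatives). Sdhb (92.1 to 744 CPM, median 278) and Sdhc (10.7 to 484 CPM, median 165) lay under the trend, with ratios of 0.539 and 0.709. Partner subunits of 1 small complex thus spanned unlike ranges, and the difference in spread between them was not tested.

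Complex III genes lay closest to the trend at the core proteins Uqcrc2 (variance 0.686, trend 0.749) and Uqcrc1 (0.401, trend 0.475). Uqcrfs1 lay farthest below it (1.31, trend 3.18), and had a lowest value of 2.51 CPM and a median of 59.2 CPM. In complex IV, Cox7b2 (3.37, trend 3.29) and Cox5a (ratio to the trend 1.05) exceeded the trend slightly, and Cox7a1 lay farthest below (3.30, trend 6.09).

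No complex V gene lay above the trend, and the median ratio of variance to trend was 0.547. That ratio was lower in complex III (0.51), complex IV (0.488) and accessory complex I (0.378). The 15 genes of complex V were found in all 48 cells, and the ratio of the highest to the lowest cell ran from 2.97 to 12.2. Atp5j, a part of the peripheral stalk, ranged from 241 to 718 CPM with a median of 465 CPM. Atp5c1, the rotating central stalk, ranged from 492 to 1682 CPM, and Atp5b from 810 to 3128 CPM, a 3.86-fold range. Nearest to the trend were Atp5f1 (variance 0.345, trend 0.409) and the α subunit Atp5a1 (0.244, trend 0.311).

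**Figure D2:**
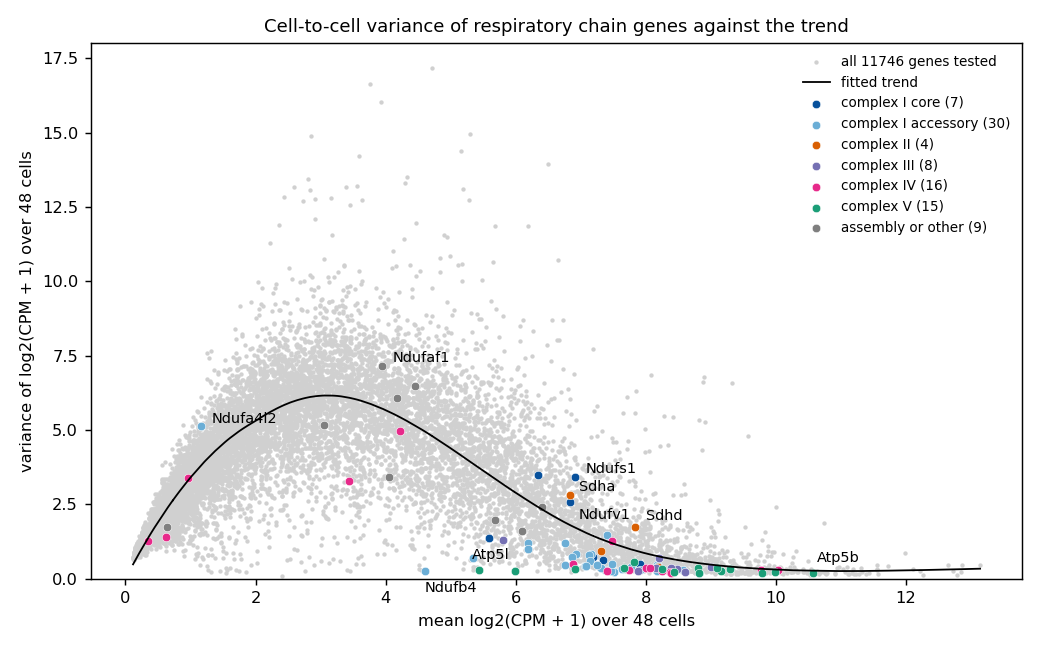
Variance of log2(CPM + 1) over 48 cells against its mean, 1 point per gene, with the fitted trend as a line and members coloured by complex. Most members lie under the line, and Ndufs1, Ndufv1, Sdha and Sdhd lie above it.

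Transcript length moves with this measure and is given beside it. Subunit genes under 1000 bases lay above the trend in 4 of 48 cases (8.33%), and longer ones in 6 of 32 (18.8%). Over all tested genes the shares were 21.5% and 53.6%. The core genes had a median length of 1623 bases, accessory ones 812 and complex II 2066. In both length classes the share of members was below that of all genes. The part of length in the difference between core and accessory subunits was not tested.

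The fit was repeated in the 35 naive-like cells, where 1.75% of 11454 genes were called. Of the 89 members 1 was called, Sdhd (variance 2.09, trend 0.840, adjusted p = 0.00416 by scran with Benjamini-Hochberg adjustment). This call rests on 1 cell. Cell 18 had 7 Sdhd reads, 3 on one lane and 4 on the other, which is 1.42 CPM. The same cell had 458 CPM of Sdhb and 318 CPM of Sdhc, above 27 and 28 of the 35 cells, and 81.7 CPM of Sdha, above 8 of them. Without it the variance was 0.820 and the adjusted p 0.930. Ndufs1 did not pass here (variance 2.74, p = 0.00199, adjusted p = 0.0935).

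A second naive-like cell, cell 37, was low in the whole of complex II. It had 6.89 CPM of Sdha and 104 CPM of Sdhb, the lowest of the 35 cells for each, 58.9 CPM of Sdhc and 21.4 CPM of Sdhd. Its share of reads in complex II was the lowest of all 48 cells, 0.0165%, and the highest cell had 0.170%. Without cell 37 the lowest share was 0.0543%, so the range shrank from 10.3-fold to 3.14-fold. Cell 18 was thus the lowest of the 35 in Sdhd alone, and cell 37 stood among the lowest 3 in all 4 genes. Low values in cell 37 were not limited to complex II. It held 1.87% of reads in all members and 0.422% in accessory complex I, the lowest of all 48 cells for each. Its shares in complex IV (0.419%) and the complex I core (0.121%) lay near the medians of 48 cells (0.43% and 0.111%).

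The clusters were compared as a description, since cells are not replicates and all are of 1 group. A difference is that of mean log2(CPM + 1), endoderm-like minus naive-like. None of the 89 members was higher in endoderm-like cells by at least 1 log2 unit, where 15.9% of all genes were, and 4 were lower by as much, where 16.5% of all genes were. Both shares of the members lay under those of all genes, which were not matched to the members for level. The median difference was 0.03 over the 89 members and -0.15 over all genes. In all, 45 members were higher and 44 lower, where 43.6% of all genes were higher and 56.4% lower. The share of reads in members was 2.31% ± 0.229 (SD, n = 35) in naive-like and 2.21% ± 0.218 (SD, n = 13) in endoderm-like cells, a gap smaller than the spread between cells.

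In the core of complex I all 7 genes were lower in the endoderm-like cells, where 56.4% of all genes were, with a median of -0.39. This count was 7 under every scaling tried. Of the 30 accessory genes 21 were higher, where 43.6% of all genes were, with a median of 0.11 (19 with library size alone). The difference between core and accessory genes was not tested, nor was the part of transcript length (medians 1623 and 812 bases) in it. Ndufv1 had a difference of -0.95, with a median of 159 CPM in naive-like cells (8.28 to 648) and 121 CPM in endoderm-like cells (3.97 to 403). Ndufs1 had -0.89, and Ndufs3 (-0.15) differed least. By median CPM Ndufs3 was higher in endoderm-like cells (60 against 53.5 CPM), and the other core genes were lower. The core held 0.125% ± 0.0298 of reads in naive-like and 0.0951% ± 0.0275 in endoderm-like cells, with ranges of 0.0772% to 0.213% and 0.0550% to 0.165% that overlap. Accessory subunits held 0.540% ± 0.0724 and 0.553% ± 0.0611.

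The 2 ends of the accessory subunits were Ndufa3 (0.71) and Ndufv3 (-0.69). Ndufa3 had medians of 98.6 CPM in naive-like and 164 CPM in endoderm-like cells, and its ranges, 27.1 to 178 and 62.1 to 296 CPM, overlapped. Ndufa5 (0.64), Ndufb3 (0.57) and Ndufb7 (0.51) were also higher on average.

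In complex II 3 of 4 genes were lower, a share not far from that of all genes for so few, with a median of -0.44. Sdha differed most (-0.97), with means of 196 and 122 CPM, and Sdhb had -0.52, with medians of 297 and 242 CPM. Sdhd was the exception (0.13). The share of reads in complex II was 0.103% ± 0.0303 in naive-like and 0.0782% ± 0.0211 in endoderm-like cells, and the ranges overlapped.

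In complex III 6 of 8 genes were higher (median 0.11), from Uqcrc1 at -0.40 to Uqcrc2 at 0.49, so the core proteins of 1 complex sat at opposite ends. Complex IV had 6 of 16 higher (median -0.15), from Cox6b2 at -1.13 to Cox6a1 at 0.39. Complex V had 8 of 15 higher (median 0.03), and with library size alone 7 of 15. Atp5g1 had -0.44 and Atp5d, a small subunit of the central stalk, 0.51. With scaling by library size alone the medians of all members, of all subunits and of complex V turned slightly negative, so no direction is given for them.

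Among the 4 members lower by at least 1 log2 unit were Atp5sl (-1.62), Cox4nb (-1.14) and Cox6b2. Atp5sl, also named Dmac2, is a complex I assembly factor, and had medians of 30.5 CPM in naive-like and 10.8 CPM in endoderm-like cells. Cox4nb had medians of 140 and 75.5 CPM. Cells with few reads weigh heavily on the log scale: with a pseudocount of 10 CPM none of the 4 reached 1 log2 unit. The 9 assembly and other rows had a median of -0.64, with 6 of 9 lower. Ndufaf3 (0.68), Ndufaf1 (0.51) and Sdhaf1 (0.03) were the higher ones.

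Of the 13 endoderm-like cells, 8 still had Pou5f1 detected and 5 did not. Complex V held 0.791% of reads in the 8 cells (0.645% to 0.896%) and 0.644% in the 5 (0.516% to 0.750%), and the core of complex I 0.101% and 0.0849%. Both ranges overlap.

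**Figure D3:**
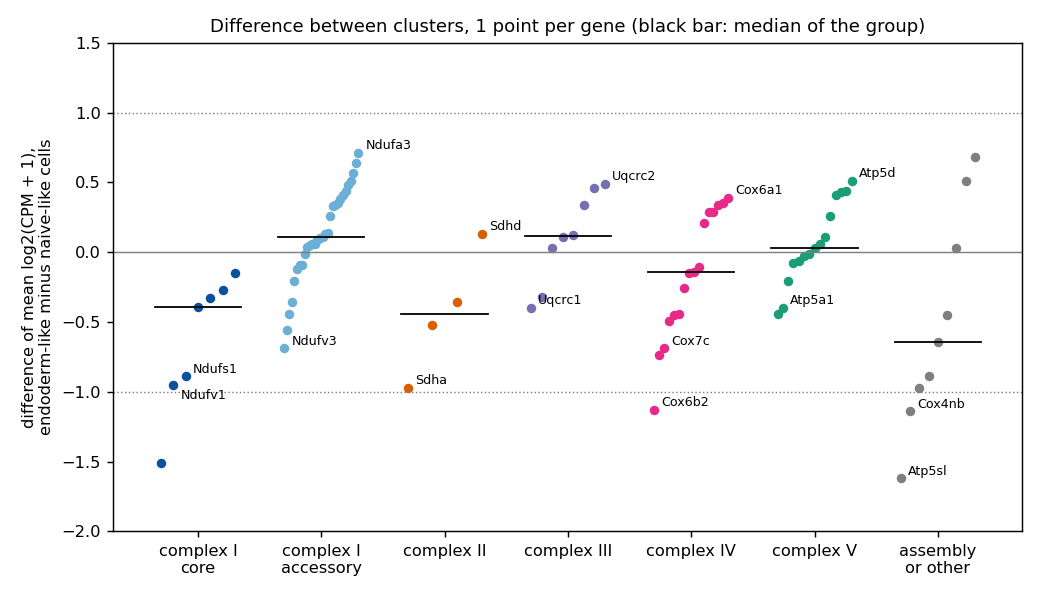
Difference of mean log2(CPM + 1) between 13 endoderm-like and 35 naive-like cells, 1 point per gene, by complex, with the median of each group as a black bar and dotted lines at 1 and -1. All 7 core genes of complex I lie under 0 and 21 of 30 accessory ones above it.

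Several subunits of complexes IV and V exist as products of alternative genes, known as tissue isoforms, and the cells used mainly the ubiquitous form. Shares within a set are of the summed level per kilobase. Cox4i1 made up 99.8% ± 0.417 of its pair (SD, n = 48). Its lung-enriched partner Cox4i2 was detected in 12 of 48 cells and never above 20.0 CPM. Cox6a1 made up 100% of its pair, and the muscle form Cox6a2 was detected in 0 of 48 cells. This allows up to 7.40% of cells with detected reads at this depth (exact Clopper-Pearson 95% interval), and sets no limit on cells that express the gene. Cox8a made up 99.5% ± 2.22 of its set. Cox8b, a muscle form, had 1 read in 1 cell, and Cox8c, a testis form, was detected in 4 cells, all naive-like, with a highest level of 41.1 CPM.

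Other alternative forms were present at moderate levels. Cox6b2, known from testis, was detected in 40 of 48 cells and made up 12.3% ± 11.1 of its pair, from 0% to 41.1%. It was detected in 31 of 35 naive-like and 9 of 13 endoderm-like cells, with mean shares of 14.2% and 7.12%. Cox7a1, the muscle form, was detected in 40 cells and made up 7.35% ± 7.33 of its set, beside 74.0% ± 9.27 for Cox7a2 and 18.7% ± 7.29 for Cox7a2l, which helps to join complexes III and IV into supercomplexes. Cox7b made up 97.4% ± 7.47 of its pair. Its testis partner Cox7b2 was detected in 12 cells, and reached 119 CPM, or 40.0% of the pair, in 1 of them. Forms known from testis and muscle were thus unequal: Cox6b2 and Cox7a1 were found in most cells, Cox7b2 and Cox8c in few.

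The c-ring of complex V is made from Atp5g1, Atp5g2 and Atp5g3, whose mature proteins are identical. Their mean levels were 482, 66.5 and 586 CPM. Per kilobase Atp5g3 held 79.6% ± 7.58, Atp5g1 10.5% ± 3.55 and Atp5g2 9.98% ± 5.84. The share of Atp5g1 rests on an annotated main transcript of 4715 bases. With the shortest protein-coding transcript of each gene, 596 bases for Atp5g1, the shares were 44.8% for Atp5g1, 46.1% for Atp5g3 and 9.09% for Atp5g2, so how the level divides between Atp5g1 and Atp5g3 is uncertain. Ndufa4 made up 98.2% ± 4.92 of its pair with Ndufa4l2.

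**Figure D4:**
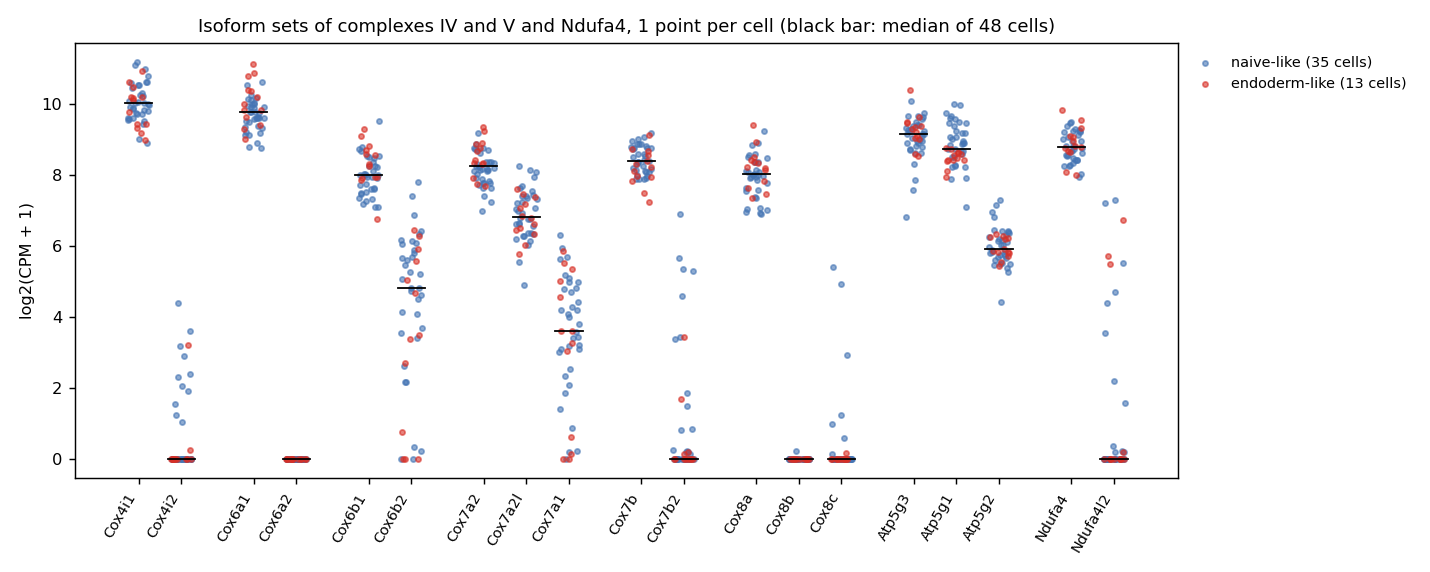
Log2(CPM + 1) of isoform sets in 48 cells, 1 point per cell, with the median as a black bar. Cox4i2, Cox6a2, Cox7b2, Cox8b, Cox8c and Ndufa4l2 have a median of 0, while Cox6b2 and Cox7a1 spread from 0 to high values.

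How far subunits varied together was described in the 35 naive-like cells, as Spearman correlations of log2(CPM + 1). These have no p-value, and all points of a cell share its scaling factor. The mean over all pairs of the 80 subunit genes was 0.19, and 80.3% of pairs were positive, where all genes had a mean of 0.00. All genes were not matched to the subunits for level here. The median level was 231 CPM per kilobase in subunits and 8.28 in all tested genes. Complex V was the most tightly linked, with 0.37 and 99.0% of pairs positive. Complex II had 0.27, accessory complex I 0.22, complex III 0.19, complex IV 0.15 and the complex I core 0.10. The values depend on the scaling. With scran factors complex V had 0.19 and all subunits 0.08, and with library size alone 0.14 and 0.05. In cells thinned to equal reads the values were 0.21 and 0.09. All genes had 0.01 in each of these. Under the 3 scalings complex V lay above accessory complex I, complexes III and IV and the core. Complex II equalled it with scran factors (0.19) and was higher with library size alone (0.17).

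The gene that best followed the other subunits was Atp5j2, a subunit of the membrane part of complex V, with a correlation of 0.88 with the mean of the others. Atp5k (0.77), Cox4i1 (0.73), Cox6c (0.73) and Ndufb8 (0.72) came next. All 15 complex V genes had at least 0.41. The lowest values belonged to the isoforms Cox4i2 (-0.36) and Cox6b2 (-0.15), to Ndufv1 (-0.11) and to Uqcrc2 (-0.10). The genes of wide spread were not alike here: Ndufs1 had 0.41, Sdhd 0.48 and Sdha -0.02.

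Mean values of complexes were linked as well. Complexes I and V had a Pearson r of 0.77 and a Spearman rho of 0.72 over 35 cells (r = 0.72 without the 2 cells farthest from the median), and III and V had 0.71 and 0.75 (0.70). Complexes I and III had 0.57 and 0.66. Complexes II and IV had -0.25 and -0.21, the only negative pair of complex means under this scaling. A complex mean averages log2 values, so genes of wide spread weigh most in it. Over single gene pairs between II and IV the mean Spearman correlation was 0.09 (-0.02 with scran factors, -0.05 with library size alone). With scran factors the values for complex means were 0.59 and 0.53 for I and V, and -0.36 and -0.58 for II and IV. With library size alone they were 0.50 and 0.49 for I and V, 0.59 and 0.43 for III and V, and 0.37 and 0.44 for I and III. Over the 35 cells the share of reads in members had a Spearman correlation of 0.06 with total reads and -0.09 with genes detected, while the share in complex IV had -0.29 and that in accessory complex I -0.22 with genes detected. The part of depth and detection in the correlations was not tested.

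**Figure D5:**
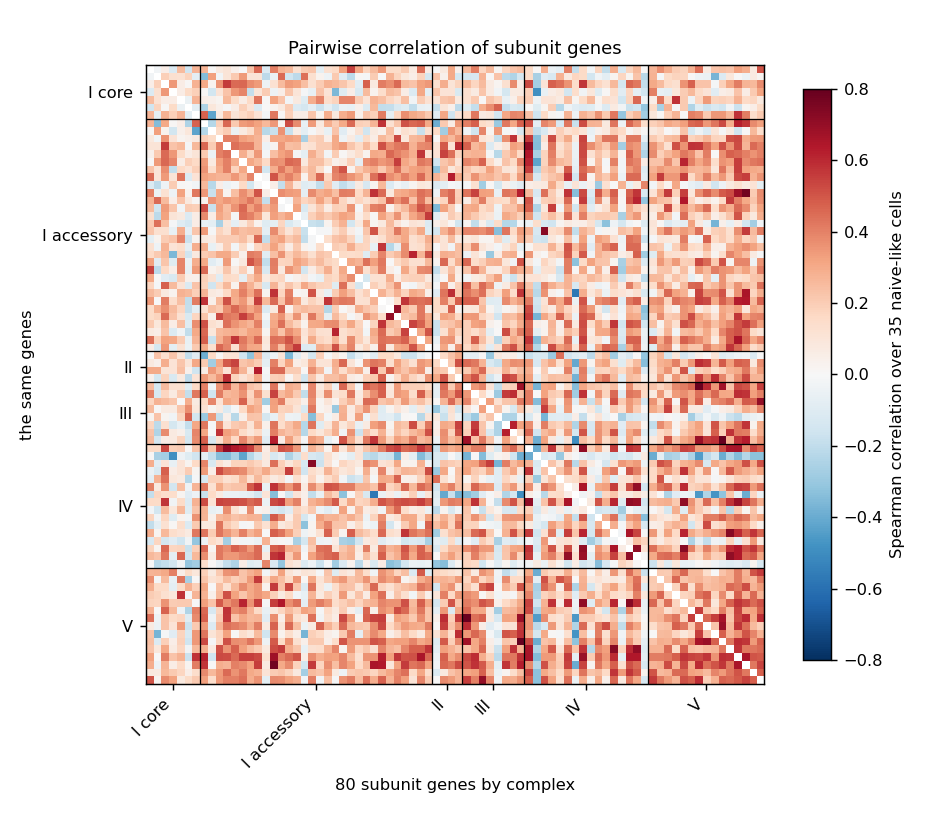
Spearman correlation over 35 naive-like cells for each pair of 80 subunit genes, ordered by complex, on a colour scale from -0.8 to 0.8 with the diagonal left blank. The complex V block, with a mean of 0.37, is the most evenly red, and the complex I core block, with 0.10, is pale.

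Of 51 listed partners of the chain that the names do not cover, 45 had a row and 43 were tested. In the fit over all cells 1 was called, close to the share of 2.03% over all genes. It was Slc25a4, the ADP/ATP carrier that exports the ATP made by complex V (variance 0.919, trend 0.323, adjusted p = 0.000265 by scran with Benjamini-Hochberg adjustment). It ranged from 236 to 3368 CPM with a median of 1020 CPM, and it passed in the naive-like cells too (adjusted p = 1.17e-06). Its means were 1008 CPM in naive-like and 1528 CPM in endoderm-like cells. The related carrier Slc25a5 ranged from 601 to 5681 CPM and did not pass (variance 0.328, trend 0.260). Ucp2, an inner membrane carrier, had a variance of 3.37 against a trend of 1.60 and did not pass (adjusted p = 0.131).

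Cycs, for the electron carrier cytochrome c (variance 0.323, trend 1.16), lay under the trend. So did Cyc1 (1.39, trend 1.61), for cytochrome c1, a subunit of complex III that the names do not cover. Cyct, the testis form of cytochrome c (4.15, trend 4.08), lay slightly above the trend. Of 23 assembly genes 9 lay above it and of 10 regulators 4, and 0 of either were called. The regulators Nrf1 (variance 4.38, trend 5.91), Gabpa (4.66, trend 4.49) and Yy1 (3.09, trend 4.02), whose sites were searched in the promoters, were among those not called. The median ratio of variance to trend over all 43 partners was 0.900, against 0.508 over the members.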

How the data were processed

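Single-cell RNA-seq of 48 cells (96 samples, 2 lanes per cell) was analysed from a deposited table of raw read counts per gene. The authors used the mouse build mm9, featureCounts of Subread 1.4.5-p1 and the aligner STAR 2.3.1z12, per the submitters' processing notes. Reads carry no molecular identifiers, and the kit marks no strand. The interval given for Cox6a2 is for the share of cells with detected reads, and covers no other error. Lanes were summed. Counts were scaled with TMMwsp factors of edgeR 4.0.16 in R 4.3.3 and taken as log2(CPM + 1). Variance was tested one-sided with modelGeneVar of scran 1.30.0 over genes that averaged 10 reads or more, with Benjamini-Hochberg adjustment over all of them and a threshold of 0.05. The procedure was tested on simulated data. Clusters came from Ward's method on 5 principal components of 500 variable genes (mean silhouette 0.575), and no doublet caller was run. Lengths, shared 50-base stretches and gene positions came from GENCODE M21 (GRCm38), promoters from RefSeq. Positions in mm9 were not used here, and the values of 1 member are not reported here.

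The members and lists were chosen with earlier results of these data known. Cox4nb, Atp5s and Atp5sl were set apart from complexes IV and V after the table had been read. Named are members called variable, per complex the 2 largest and the smallest variance above trend and the 2 highest and the lowest level, isoform sets, members past 1 log2 unit between clusters, those nearest the read minimum, and called partners; further genes were chosen after their values were seen. Alternatives were other factors (scran, library size, poscounts of DESeq2 1.42.0), a pseudocount of 10 CPM, no filter or a minimum of 50 reads, thinned cells, single lanes, the larger cluster and the squared coefficient of variation.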

Additional observations from a re-analysis of the deposited data

How the results depend on the processing

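Over all 48 cells the count of variable members was 0 under each scaling, filter, pseudocount, depth, lane and measure of spread tried, and 1 in the larger cluster alone. Within that cluster the count of 1 became 0 with a pseudocount of 10 CPM (Sdhd adjusted p = 0.636 by scran), with the squared coefficient of variation (0.945) and without the cell with the fewest Sdhd reads (0.930), an alternative chosen after seeing the data. The median variance above trend of complex II, 0.22 on the log2 scale, was -0.04 with a pseudocount of 10 CPM. Without the 50 rows with the most reads in the total, members held 2.52% of reads and subunits 2.46%. The median difference between clusters was -0.02 with library size alone or lane 2 alone for all members. With library size alone it was -0.01 for all subunits and -0.02 for complex V. The mean pairwise correlation of complex V was 0.21 in thinned cells. For the 16 members not detected in every thinned cell, a missing read does not show a missing transcript. The part of depth in their missing reads was not tested. No paired analysis was possible because all cells belong to 1 group.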
